A study of Mus musculus with 6 samples.

Results

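Described here are 44 genes that fold proteins in the endoplasmic reticulum (ER) or carry them into it, the ER chaperones, disulfide isomerases, translocation channel, signal peptidase and oligosaccharyltransferase, chosen by name from the 55740 gene models of the deposited table. Each matched 1 row, and all 44 passed the filter on low values. The cells were bone marrow-derived dendritic cells of C57BL/6J mice, grown from marrow in culture. The treated group had 18 mM lysine for 6 h (n = 3), and the control group had phosphate-buffered saline (PBS, n = 3) for the same 6 h. No genetic change is given for either group. The labels do not say whether replicates came from separate animals or cultures, so each p-value covers just the variation among these 6 samples, and that variation could be technical.

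The ER is where secreted and membrane proteins enter the secretory route, are folded, joined by disulfide bonds and given their first sugars. Nascent chains pass through the SEC61 channel, lose their signal peptide to signal peptidase and receive N-linked glycans from oligosaccharyltransferase. Chaperones of the HSP70 and HSP90 families, the lectins calreticulin and calnexin, and protein disulfide isomerases then fold them. Cells adjust the genes of this machinery through the unfolded protein response, whose sensors IRE1, PERK and ATF6 act through the transcription factors XBP1, ATF4 and ATF6. Dendritic cells rely on this machinery for the MHC molecules and cytokines with which they instruct T cells.

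Values are TPM, a length-corrected share of all transcripts scaled to the same total in every sample, so that levels of different genes can be compared. TPM keeps no sequencing depth, so the depth and its counting error are unknown. Between 12277 and 12449 gene models reached 1 TPM in a sample. The correlation of log2(TPM + 1) was 0.974 to 0.982 within a group and 0.914 to 0.934 between the groups. All 12 dendritic cell markers reached a mean of 1 TPM, led by Cd74 (3413 TPM with lysine and 3237 TPM with PBS), and summed to 5583 to 7348 TPM with lysine and 5528 to 7874 TPM with PBS. The summed level of 8 granulocyte markers was 33.8 to 39.8 TPM with lysine and 74.1 to 111 TPM with PBS. Most of that sum was S100a8 alone (35.0 ± 2.25 TPM with lysine, 91.9 ± 20.4 TPM with PBS). S100a9, the only other of the 8 with a mean of at least 1 TPM, held 1.25 TPM with lysine and 1.45 TPM with PBS. Elane was at 0 throughout. For 10 macrophage markers, led by Cd68, the summed level was 875 to 895 TPM with lysine and 982 to 1079 TPM with PBS. The sum for 11 B cell and plasma cell markers was 147 to 201 TPM with lysine and 125 to 129 TPM with PBS. Of these markers 3, led by Sdc1, had a mean of at least 1 TPM over all samples. Sdc1 made up most of the sum (173 ± 32.7 TPM with lysine, 120 ± 4.84 TPM with PBS). Mast cell and basophil markers, led by Gata2, summed to 8.03 to 12.9 TPM with lysine and 13.5 to 18.4 TPM with PBS, and of 8 fibroblast markers none had a mean of 1 TPM, Pdgfra being the highest. The part of these shifts in the results below was not tested.

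With lysine, most of the members that fold proteins were lower, while the members of translocation, signal cleavage and glycosylation were called at shares near those of all genes. Members and role groups were chosen with earlier results of these data known. In 33 other ER folding genes tested, 30.3% were lower and 30.3% higher, so the fall is described for the listed members only. Of the 44 genes, 24 fell, 6 rose and 14 did not pass the test (limma on log2(TPM + 1), adjusted p under 0.05 by Benjamini-Hochberg over the 12539 genes tested). Among all genes tested 55.1% were called, 29.3% lower and 25.8% higher. The members stood at 68.2% called, 54.5% lower and 13.6% higher. The members were more abundant than most genes, as given below. With a filter of 5 TPM, 61.3% of the genes tested were called, and still 30 members. The part of level in the difference was not tested. The median log2 fold change was -0.28 over the members and -0.05 over all genes tested. In 35 members the groups did not overlap, against 63.4% of all genes tested. At least 2-fold falls were found for 4 members, Sdf2l1, Pdia5, Pdia6 and Manf, or 9.09%, against 10.3% of all genes tested. No member rose 2-fold, against 8.34% of all genes tested. In bulk RNA, fewer cells of a type and less RNA per cell cannot be told apart.

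**Figure D1:**
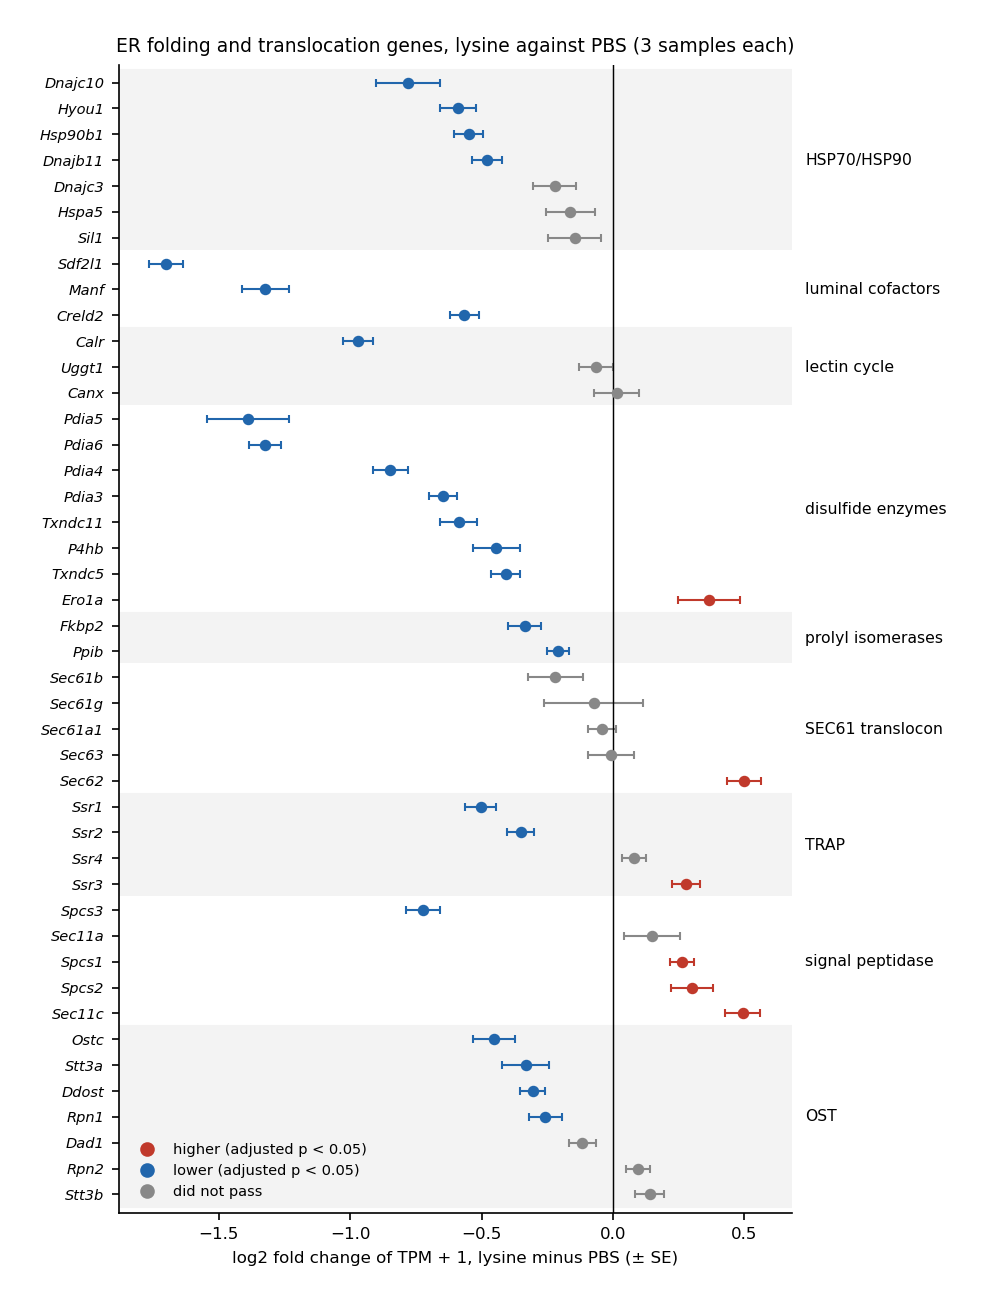
Log2 fold change of TPM + 1 (lysine minus PBS, horizontal axis) with its standard error for the 44 members, ordered within role groups. Sdf2l1 (-1.70), Pdia5 (-1.39), Pdia6 (-1.32) and Manf (-1.32) lie furthest left, while Sec62 (0.50) and Sec11c (0.49) lie furthest right.

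The 23 members that act in folding held 17 falls, 1 rise and 5 that did not pass, with a median log2 fold change of -0.55. Among the 21 members of translocation, signal cleavage and glycosylation there were 7 falls, 5 rises and 9 that did not pass, with a median of -0.04. These are 33.3% lower and 23.8% higher, near the shares over all genes tested, so the count is no result about these members. For the folding members the shares were 73.9% lower and 4.35% higher. Summed over all 44, the level was 5826, 5891 and 6259 TPM with lysine, against 7602, 7618 and 7263 TPM with PBS. This is 0.599% of all transcripts with lysine and 0.749% with PBS. The folding members summed to 3074 ± 127 TPM with lysine and 4542 ± 181 TPM with PBS, 32.3% lower. The translocation, cleavage and glycosylation members summed to 2918 ± 109 TPM with lysine and 2953 ± 22.4 TPM with PBS (SD, n = 3), a ratio of 0.988 that becomes 1.022 under median-of-ratios scaling. Calr alone accounted for 30.8% of the net fall of the sum, followed by Pdia6 with 9.64% and P4hb with 8.36%.

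**Figure D2:**
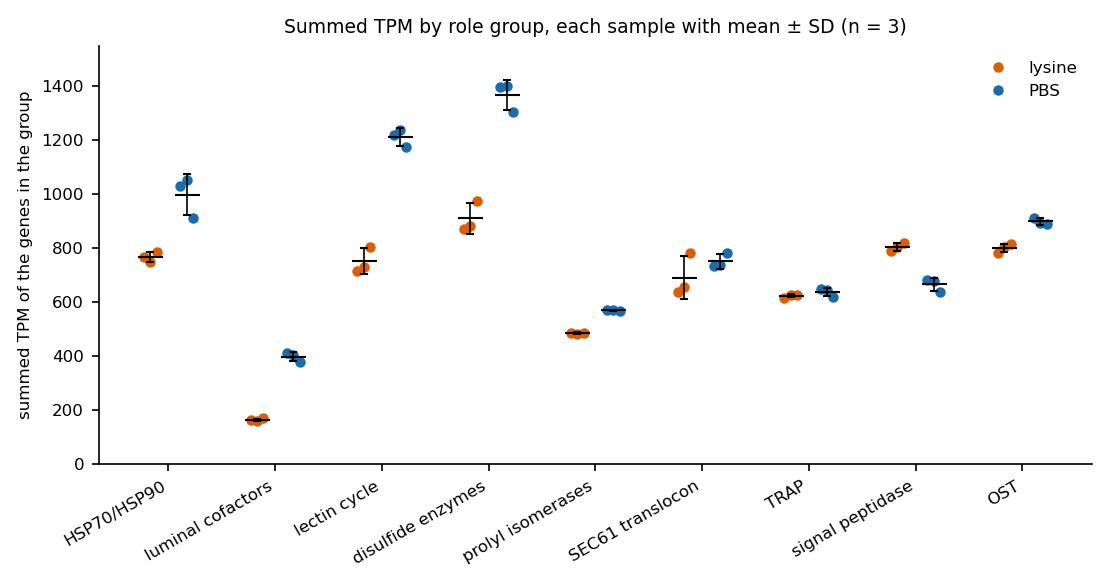
Summed TPM of the members of each role group (vertical axis, from 0) in each of the 3 lysine and 3 PBS samples, with mean ± SD. The disulfide enzymes (909 TPM with lysine, 1366 TPM with PBS) and the lectin cycle (750 TPM with lysine, 1211 TPM with PBS) show wide gaps between groups, and signal peptidase is higher with lysine (804 TPM, against 666 TPM with PBS). The TRAP complex is close (623 TPM with lysine, 637 TPM with PBS), and its direction flips under median-of-ratios scaling (ratio 1.01).

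The members were abundant genes. Their median level over the 6 samples was 111 TPM, against 13.6 TPM over all genes tested. The highest was Calr (712 TPM, mean of all samples), followed by Sec61b (514 TPM) and Ppib (422 TPM). The lowest was Pdia5 (5.53 TPM), at percentile 28.6 of the genes tested.

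**Figure D3:**
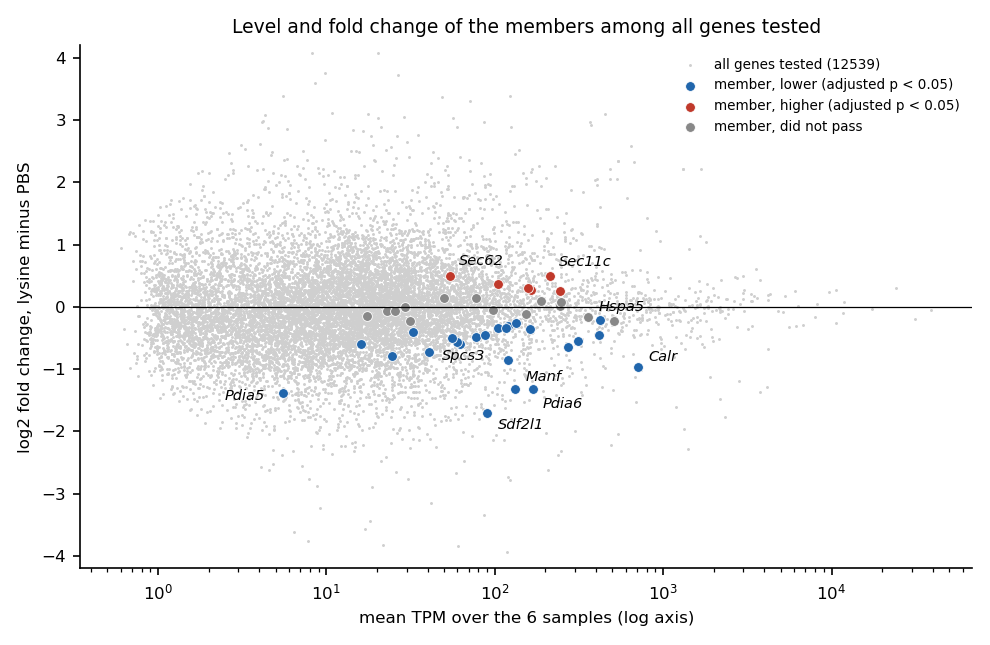
Mean TPM over the 6 samples (horizontal log axis) against the log2 fold change (lysine minus PBS) for all 12539 genes tested in grey and the 44 members in colour. Most members lie to the right of the cloud's centre, with Calr the most abundant at 712 TPM and Pdia5 the least at 5.53 TPM, and 6 genes that are not members lie outside the vertical range.

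Many genes of this machinery share a promoter sequence, the ER stress response element (ERSE), to which the factors NF-Y and ATF6 bind. RefSeq promoter windows of GRCm38.p6, 250 bases before to 50 after a start site, were found for 36 of the 44 members. Searched on both strands for the letters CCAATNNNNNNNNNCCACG, 7 of the 36 members (19.4%) held an exact match. Among all 27025 genes with a window, the members included, 37 did (0.137%). As the element is known from genes of this machinery, this difference is no result of these data. The matches are shown because they mark the members with the textbook element, read in the orientation of the motif, with the fixed letters in capitals.
Pdia6: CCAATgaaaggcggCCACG
Calr: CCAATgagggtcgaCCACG
Creld2: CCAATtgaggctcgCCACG
Hsp90b1 (far copy): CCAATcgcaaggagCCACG
Hsp90b1 (near copy): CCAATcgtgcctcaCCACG
Dnajc3: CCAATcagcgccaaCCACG
Hspa5: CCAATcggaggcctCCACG
Canx: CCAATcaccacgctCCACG
In these windows the match began 65 bases before the start site in Hspa5 and 98 bases before it in Pdia6, counted along the gene's strand. It began 162 bases before the start in Calr, 145 in Canx, 126 in Creld2, 105 in Dnajc3, and 212 and 107 in Hsp90b1.

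Whole windows, each with the promoter and the start of the first transcribed stretch, are printed for Pdia6 and Calr, which fell, for Hspa5 and Canx, which did not pass, and for Sdf2l1, which fell most, with any ERSE match in capitals on the strand of the gene.
Pdia6 (chr12:17266339-17266638, plus strand): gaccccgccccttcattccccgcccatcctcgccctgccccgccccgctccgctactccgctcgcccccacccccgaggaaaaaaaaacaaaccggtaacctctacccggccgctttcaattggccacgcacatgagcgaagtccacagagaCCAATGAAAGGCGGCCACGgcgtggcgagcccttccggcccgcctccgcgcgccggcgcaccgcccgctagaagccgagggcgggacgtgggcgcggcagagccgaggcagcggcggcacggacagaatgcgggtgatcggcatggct
Calr (chr8:84846882-84847181, minus strand): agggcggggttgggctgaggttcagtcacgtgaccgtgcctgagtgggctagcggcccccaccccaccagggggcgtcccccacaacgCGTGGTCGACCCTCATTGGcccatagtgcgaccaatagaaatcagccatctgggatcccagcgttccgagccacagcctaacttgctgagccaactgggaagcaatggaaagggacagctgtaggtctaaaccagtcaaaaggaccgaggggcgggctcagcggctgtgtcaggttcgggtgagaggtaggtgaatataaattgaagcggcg
Hspa5 (chr2:34771840-34772139, plus strand): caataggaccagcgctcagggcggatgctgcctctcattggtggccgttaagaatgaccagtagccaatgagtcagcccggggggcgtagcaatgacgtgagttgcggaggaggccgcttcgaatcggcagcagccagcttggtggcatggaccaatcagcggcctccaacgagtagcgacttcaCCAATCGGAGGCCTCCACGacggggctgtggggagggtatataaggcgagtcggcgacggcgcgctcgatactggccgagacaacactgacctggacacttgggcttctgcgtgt
Canx (chr11:50325624-50325923, minus strand): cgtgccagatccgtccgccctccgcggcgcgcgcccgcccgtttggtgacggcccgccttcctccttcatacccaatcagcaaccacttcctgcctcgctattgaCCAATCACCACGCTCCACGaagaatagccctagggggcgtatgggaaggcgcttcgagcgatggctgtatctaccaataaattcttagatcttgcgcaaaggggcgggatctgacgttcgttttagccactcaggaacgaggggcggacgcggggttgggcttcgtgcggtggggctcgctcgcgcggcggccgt
Sdf2l1 (chr16:17132334-17132633, minus strand): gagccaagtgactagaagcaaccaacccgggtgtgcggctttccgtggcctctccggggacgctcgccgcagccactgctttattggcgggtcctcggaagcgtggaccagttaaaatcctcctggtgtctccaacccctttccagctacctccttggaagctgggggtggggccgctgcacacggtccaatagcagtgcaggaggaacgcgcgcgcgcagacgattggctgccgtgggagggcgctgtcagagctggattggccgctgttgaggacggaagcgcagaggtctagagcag
These letters are a description of the windows and show neither binding nor its absence.

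The HSP70 and HSP90 system of the lumen had 4 falls, no rise and 3 members that did not pass among 7. As shares, 57.1% were called, all lower, against 55.1% called and 29.3% lower of all genes tested. Hsp90b1 (chr10:86690209-86705509 in GRCm38, like all gene positions here from GENCODE) encodes GRP94, the HSP90 chaperone of the ER, whose clients include Toll-like receptors and integrins. It held 249.11, 251.76 and 258.97 TPM with lysine, against 375.38, 387.9 and 350.04 TPM with PBS. All lysine samples were below all PBS samples (log2 fold change -0.55 ± 0.06 (SE), adjusted p = 0.000349). Dnajb11, a J-domain partner that delivers unfolded chains to BiP, held 67.06, 64.24 and 62.53 TPM with lysine, against 93.06, 91.08 and 87.14 TPM with PBS. The groups were separate here too (log2 fold change -0.48 ± 0.06, adjusted p = 0.000628).

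The other falls of this system were Hyou1, the large HSP70 relative GRP170 that also exchanges nucleotide on BiP, and Dnajc10, the disulfide reductase ERdj5. Hyou1 averaged 49.4 ± 2.03 TPM with lysine and 74.9 ± 4.92 TPM with PBS (SD, n = 3), and Dnajc10 17.8 ± 2.72 TPM with lysine and 31.2 ± 2.23 TPM with PBS. Hspa5 (chr2:34771970-34777547), which encodes BiP, the central HSP70 chaperone of the ER and the usual marker of its stress, did not pass. Its level was 334.01, 316.53 and 357.06 TPM with lysine, against 397.64, 405.28 and 328.62 TPM with PBS. The groups overlapped because PBS replicate 3 lay among the lysine samples (log2 fold change -0.16 ± 0.09, adjusted p = 0.186). Without PBS replicate 3 it was called lower (log2 fold change -0.26, adjusted p = 0.023). Sil1, the other nucleotide exchange factor of BiP, held 16.5 TPM with lysine and 18.4 TPM with PBS (adjusted p = 0.257). Dnajc3, the co-chaperone P58IPK, averaged 28.7 ± 0.939 TPM with lysine and 33.8 ± 3.08 TPM with PBS (adjusted p = 0.0564) and was called lower without PBS replicate 3 (adjusted p = 0.0188).

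The ratio of Hspa5 to Hsp90b1 within a sample was 1.34, 1.26 and 1.38 with lysine, against 1.06, 1.04 and 0.939 with PBS. Multiplying a whole sample by 1 factor does not alter this ratio of TPM, while quantile normalization can. Every lysine sample was above every PBS sample. An exact two-sided permutation test gave p = 0.1, the smallest that 3 samples against 3 allow (0.133 adjusted over 4 ratios).

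The lowest median of any role group (-1.32 on the log2 scale) was that of 3 small luminal proteins that the unfolded protein response induces. All 3 fell, against 29.3% of all genes tested. Sdf2l1 (chr16:17130138-17132383), a partner of BiP and its J proteins, held 43.11, 43.67 and 38.88 TPM with lysine, against 141.89, 137.27 and 135.4 TPM with PBS. The level was 3.30-fold lower with wide separation of the groups (log2 fold change -1.70 ± 0.06, adjusted p = 1.91e-05). Manf, a secreted neurotrophic factor that binds BiP in the ER, held 72.48, 69.02 and 83.22 TPM with lysine, against 196.31, 195.59 and 173.69 TPM with PBS. It was 2.52-fold lower (log2 fold change -1.32 ± 0.09, adjusted p = 8.55e-05). Creld2, a cysteine-rich protein with isomerase activity, was lower by less, 47.8 ± 0.954 TPM with lysine and 71.2 ± 2.40 TPM with PBS (adjusted p = 0.000293). Exons of Manf overlap Dcaf1 on the opposite strand and Rbm15b on its own, whose mean levels over all samples were 9.87 and 5.63 TPM, and no source used here says whether counting used strand.

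In the lectin cycle, which retains glycoproteins until they are folded, calreticulin and calnexin parted. Calr (chr8:84841850-84846934), the soluble lectin chaperone and calcium store, held 458.8, 471.58 and 513.62 TPM with lysine, against 946.59, 954.42 and 928.85 TPM with PBS. It was 1.96-fold lower (log2 fold change -0.97 ± 0.06, adjusted p = 5.89e-05). Canx, its membrane-bound relative, held 233.33, 236.37 and 270.48 TPM with lysine, against 249.06, 260.77 and 222.88 TPM with PBS, and the groups overlapped (log2 fold change 0.01 ± 0.09, adjusted p = 0.899). Calr was thus 1.97, 1.995 and 1.90 times as abundant as Canx with lysine, against 3.80, 3.66 and 4.17 times with PBS (exact two-sided permutation p = 0.1, the smallest possible, 0.133 adjusted over 4 ratios). Uggt1, the glucosyltransferase that senses misfolding and returns glycoproteins to the lectins, held 23.14, 22.45 and 21.26 TPM with lysine, against 23.01, 23.35 and 23.6 TPM with PBS (adjusted p = 0.433).

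All 7 isomerases of the thioredoxin fold fell, and the oxidase Ero1a was the exception in the disulfide group. In this group of 8 that is 87.5% lower and 12.5% higher, against 29.3% and 25.8% of all genes tested. Pdia6 (chr12:17266545-17284770), the isomerase P5 that also binds IRE1, held 91.39, 96.64 and 97.92 TPM with lysine, against 243.53, 251.4 and 225.49 TPM with PBS. The groups were far apart (2.52-fold lower, log2 fold change -1.32 ± 0.06, adjusted p = 2.93e-05). Pdia4, the isomerase ERp72, held 87.11, 81.87 and 88.04 TPM with lysine, against 158.54, 163.28 and 143.59 TPM with PBS (1.81-fold lower, log2 fold change -0.85 ± 0.07, adjusted p = 0.000144). Pdia5 was scarce and fell 3.25-fold, with 2.60 ± 0.439 TPM with lysine and 8.45 ± 1.47 TPM with PBS (adjusted p = 0.000538).

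Pdia3, the isomerase ERp57 that works with the lectins and sits in the MHC class I loading complex, averaged 213 ± 2.65 TPM with lysine and 334 ± 16.4 TPM with PBS (adjusted p = 0.000166). P4hb, the founding protein disulfide isomerase and a subunit of prolyl hydroxylase, averaged 355 ± 43.9 TPM with lysine and 480.1 ± 1.24 TPM with PBS (adjusted p = 0.00559). Its wide spread with lysine came from replicate 3 (404.23 TPM), which still lay below every PBS sample. Txndc5, a luminal isomerase, fell to 28.1 ± 0.425 TPM with lysine, against 37.6 ± 0.618 TPM with PBS (adjusted p = 0.00112). Txndc11, a membrane-bound member of the family, had 12.6 ± 0.275 TPM with lysine and 19.5 ± 0.979 TPM with PBS (adjusted p = 0.000728). The exons of Txndc11 overlap those of Snn on the opposite strand, which averaged 8.90 TPM with lysine and 9.10 TPM with PBS. Ero1a, the oxidase that reoxidizes protein disulfide isomerase and is also a hypoxia target, held 117.05, 107.19 and 128.8 TPM with lysine, against 102.06, 95.04 and 77.31 TPM with PBS. The groups did not overlap but came close (log2 fold change 0.37 ± 0.12, adjusted p = 0.0371). The call of Ero1a was lost in 8 of 14 alternatives, among them without lysine replicate 1 (adjusted p = 0.0861) or 3 (0.093) and without PBS replicate 2 (0.0665) or 3 (0.0692).

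Both prolyl isomerases, which speed a slow step of folding, were lower by small margins. Ppib, cyclophilin B, held 395.93, 391.32 and 387.73 TPM with lysine, against 451.53, 453.8 and 453.04 TPM with PBS (log2 fold change -0.21 ± 0.04, adjusted p = 0.00564). Fkbp2 held 89.05, 88.84 and 99.42 TPM with lysine, against 120.2, 116.45 and 113.92 TPM with PBS (log2 fold change -0.34 ± 0.06, adjusted p = 0.00442). In both genes all lysine samples were below all PBS samples.

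**Figure D4:**
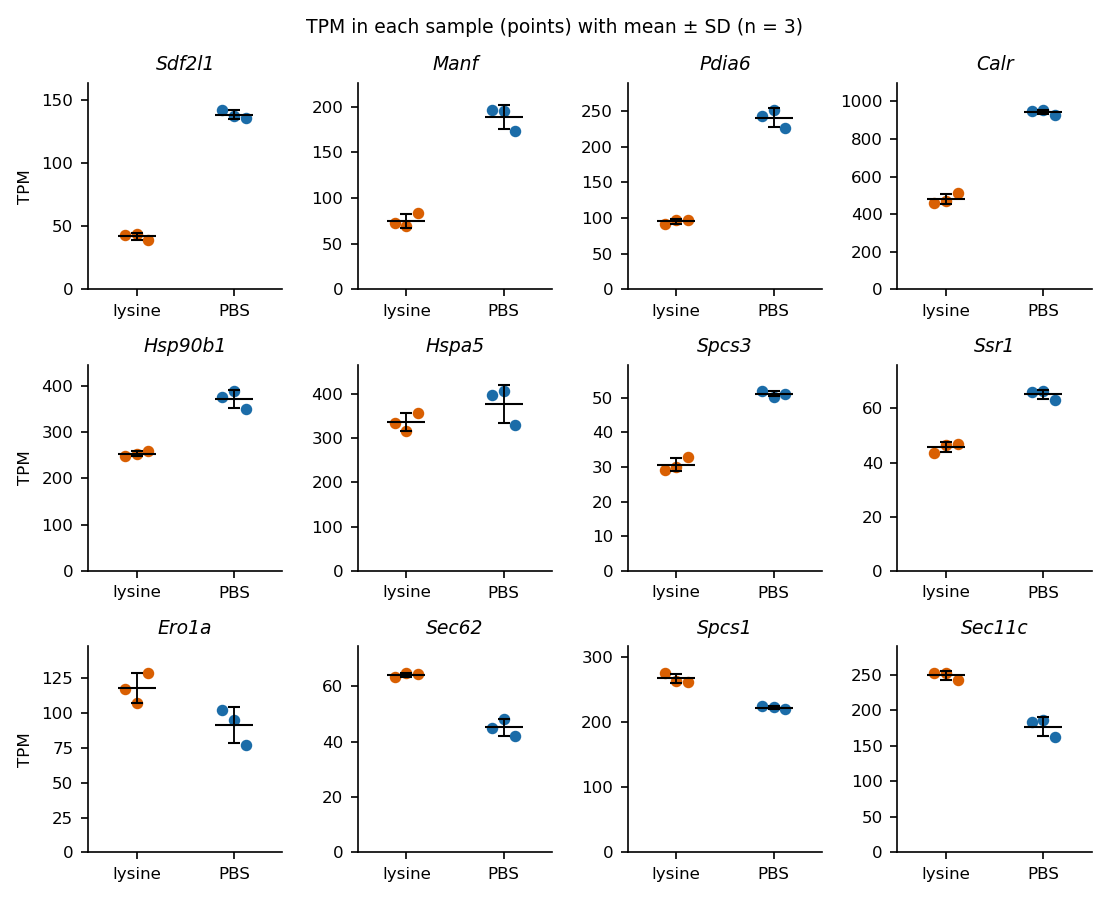
TPM (vertical axes, from 0) in each lysine and PBS sample for 12 members, with mean ± SD (n = 3). In the first 4 panels every lysine sample lies far below every PBS sample, Hspa5 shows overlap of the groups through PBS replicate 3, and the bottom row holds members with higher values with lysine.

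Of 5 SEC61 translocon members only Sec62 was called, or 20%, against 55.1% of all genes tested. This does not show that the channel was unchanged. Sec61b was called lower in 3 of 14 alternatives, and the value of Sec61g is uncertain, as given below. Sec62, a membrane partner of the channel for short secretory proteins and a receptor for ER autophagy, held 63.16, 64.8 and 64.3 TPM with lysine, against 45.07, 48.19 and 42.12 TPM with PBS. This was the largest rise among the members (1.42-fold, log2 fold change 0.50 ± 0.07, adjusted p = 0.000986). Sec63, the J-domain protein with which Sec62 works, held 27.73, 28.1 and 31.6 TPM with lysine, against 31.98, 27.37 and 28.62 TPM with PBS, with overlapping groups (adjusted p = 0.946). The pore subunit Sec61a1 averaged 96.6 ± 4.02 TPM with lysine and 99.5 ± 1.96 TPM with PBS (adjusted p = 0.527).

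Sec61b, a small tail-anchored subunit, held 432.91, 442.17 and 551.88 TPM with lysine, against 526.91, 536.55 and 590.88 TPM with PBS. It did not pass (log2 fold change -0.22 ± 0.10, adjusted p = 0.116), but lysine replicate 3 stood well above the other lysine samples, and without it Sec61b was called lower (log2 fold change -0.33, adjusted p = 0.00674). The replicate block (0.0184) and quantile normalization (0.0385) gave the same call. For Sec61g, the smallest subunit, the table held 18.6, 25.62 and 31.5 TPM with lysine, against 29.57, 24.54 and 24.28 TPM with PBS (adjusted p = 0.765). This value is uncertain. The processed pseudogene Gm10177 has a transcript that is 99.1% identical to Sec61g over 424 bases, and the table gave it 206 ± 9.37 TPM with lysine and 261 ± 19.5 TPM with PBS (adjusted p = 0.00691). How reads were split between the pair is not stated. Sec61g and Gm10177 summed to 225, 222 and 247 TPM with lysine, against 302, 298 and 263 TPM with PBS, with separate groups.

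The 4 subunits of the TRAP complex, which assists the channel with difficult signal peptides, did not move together. Ssr1, the alpha subunit, held 43.56, 46.62 and 46.96 TPM with lysine, against 66.13, 66.25 and 63.26 TPM with PBS (log2 fold change -0.50 ± 0.06, adjusted p = 0.000591). Ssr2, the beta subunit, held 142.17, 137.93 and 147.6 TPM with lysine, against 187.01, 179.95 and 179.54 TPM with PBS (log2 fold change -0.35 ± 0.05, adjusted p = 0.00141). In both, the groups were separate. Ssr3, the gamma subunit, was higher in every lysine sample, with 179.93, 180.69 and 181.8 TPM, against 150.8, 155.52 and 141.45 TPM with PBS (log2 fold change 0.28 ± 0.05, adjusted p = 0.00486). Ssr4, the delta subunit, held 250.27, 261.19 and 250.16 TPM with lysine, against 242.48, 242.32 and 235.24 TPM with PBS. Its groups were separate by a narrow margin and the test was not passed (adjusted p = 0.182). The summed level of the complex was 623 ± 6.09 TPM with lysine and 637 ± 14.9 TPM with PBS, a ratio of 0.978 that becomes 1.01 under median-of-ratios scaling.

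Signal peptidase held 3 of the 6 rises, beside 1 fall and 1 member that did not pass. These are 60% higher and 20% lower, against 25.8% and 29.3% of all genes tested. With just 5 members the count is no result about the enzyme. Sec11c, a catalytic subunit, held 252.81, 252.68 and 242.41 TPM with lysine, against 183.09, 186.12 and 161.99 TPM with PBS. All lysine samples were higher (1.41-fold, log2 fold change 0.49 ± 0.07, adjusted p = 0.0011). Its alternative, Sec11a, held 72.71, 77.01 and 95.89 TPM with lysine, against 75.26, 71.56 and 72.95 TPM with PBS, and the groups overlapped (adjusted p = 0.274). The ratio of Sec11a to Sec11c was 0.288, 0.305 and 0.396 with lysine, against 0.411, 0.384 and 0.450 with PBS (exact two-sided permutation p = 0.2, and 0.2 adjusted over 4 ratios).

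Among the accessory subunits, Spcs1 held 275.55, 263.7 and 261.74 TPM with lysine, against 224.41, 222.5 and 220.37 TPM with PBS (log2 fold change 0.26 ± 0.05, adjusted p = 0.00326). Exons of Spcs1 overlap those of Glt8d1 on the opposite strand (12.9 TPM, mean of all samples). Spcs2 held 159.6, 180.33 and 185.15 TPM with lysine, against 146.24, 148.09 and 131.35 TPM with PBS (log2 fold change 0.30 ± 0.08, adjusted p = 0.0174), a call lost without lysine replicate 2 (adjusted p = 0.0604). Spcs3, whose yeast relative is essential for cleavage, went the other way, with 29.03, 30.14 and 32.78 TPM with lysine, against 51.83, 50.36 and 51.23 TPM with PBS. Every lysine sample was lower (1.67-fold, log2 fold change -0.72 ± 0.07, adjusted p = 0.000237). Subunits of a single enzyme therefore differed in direction. The 5 subunits summed to 804 ± 14.1 TPM with lysine and 666 ± 24.2 TPM with PBS.

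Oligosaccharyltransferase, which transfers the preformed glycan to asparagine, had 4 falls, no rise and 3 members that did not pass, and 2 falls without lysine replicate 2. The 4 falls make 57.1% called, all lower, against 55.1% called and 29.3% lower of all genes tested. Ddost, the OST48 subunit, held 103.91, 107.92 and 108.71 TPM with lysine, against 132.92, 132.55 and 131.39 TPM with PBS (log2 fold change -0.31 ± 0.05, adjusted p = 0.00188). Ostc, which links the complex to the channel, held 65.45, 77.95 and 76.96 TPM with lysine, against 102.29, 102.87 and 96.55 TPM with PBS (log2 fold change -0.45 ± 0.08, adjusted p = 0.00351). Both were lower in every lysine sample.

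The enzyme has a pair of catalytic subunits, Stt3a in the complex at the channel and Stt3b in the complex that rescues skipped sites. Stt3a averaged 103 ± 6.74 TPM with lysine and 130.0 ± 13.2 TPM with PBS (adjusted p = 0.0196). That call was lost without lysine replicate 1 (0.0616) or 2 (0.0665) and without PBS replicate 1 (0.0672) or 3 (0.057). Stt3b averaged 52.5 ± 1.82 TPM with lysine and 47.6 ± 0.417 TPM with PBS (adjusted p = 0.0676), and was called higher under median-of-ratios scaling (0.0343) and with lysine replicate 3 left out (0.0446). The ratio of Stt3a to Stt3b was 1.92, 1.79 and 2.17 with lysine, against 2.87, 2.41 and 2.92 with PBS, separate in all samples (exact two-sided permutation p = 0.1, the smallest possible, 0.133 adjusted over 4 ratios).

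The ribophorins, shared scaffold subunits, differed. Rpn1 averaged 122 ± 7.93 TPM with lysine and 146 ± 4.27 TPM with PBS (adjusted p = 0.0128), a call that just missed the threshold without lysine replicate 2 (0.0501). Rpn2 averaged 196 ± 3.84 TPM with lysine and 183 ± 2.62 TPM with PBS and did not pass (adjusted p = 0.117). Dad1, a small shared subunit first known as a defender against cell death, averaged 147 ± 3.51 TPM with lysine and 159 ± 5.85 TPM with PBS (adjusted p = 0.0961), and was called lower under quantile normalization (0.029).

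Members with the element shown above did not share a call. Of the 7, Pdia6, Calr, Hsp90b1 and Creld2 fell, and Hspa5, Canx and Dnajc3 did not pass. The log2 fold changes of the 7 ran between -1.32 for Pdia6 and 0.01 for Canx, with a median of -0.55. In the other 29 members with a window there were 15 falls, 5 rises and 9 that did not pass (median -0.22). All 7 with the element are folding members, and the median over the 23 folding members was also -0.55. The other 29 include members of translocation, signal cleavage and glycosylation, so the 2 medians also differ by role. A link between the element and the fall was not tested. Sdf2l1 had no exact match in its window. Outside the members, 30 genes held the letters and 8 of them were tested, with 3 lower, 2 higher and 3 that did not pass. Over all genes tested 29.3% were lower and 25.8% higher, and 8 genes are too few for a result.

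Further elements were found in few members. ERSE-II, the letters ATTGG and CCACG with 1 base between them, was found in Dnajb11 alone among the 36 (2.78%). Among all genes with a window its share was lower (0.0444%). The XBP1 and ATF6 motif TGACGTGG was found in Txndc11 and Txndc5 (5.56%), also above its share in all genes (0.714%). These shares rest on 1 and 2 members, and the members were chosen as genes of this machinery. As for ERSE, the differences are no result of these data. The letters TGATGNAA, a form of the site that ATF4 binds with C/EBP partners, were found in Txndc5 alone (2.78%), against 4.51% of all genes. The cAMP response element TGACGTCA was found in none, against 2.03%. The CCAAT letters by themselves, with which every ERSE match overlaps, were found in 25 of 36 members (69.4%) and in 41.1% of all genes. The part of the choice of members in this difference was not tested.

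Other folding genes of the ER went up and down in equal number. In a list of 38 other ER folding genes, 33 were tested, with 10 higher, 10 lower and 13 that did not pass (median log2 fold change -0.04). The shares were 30.3% lower and 30.3% higher, against 29.3% and 25.8% of all genes tested. That is close, so the count is no result about this list. The number that rose was 5 without lysine replicate 1 or 2 and 6 without PBS replicate 3. The lower ones were led by Mogs, the first glucosidase of glycan trimming (9.50 ± 0.197 TPM with lysine, 19.2 ± 1.08 TPM with PBS), the cargo receptor Lman1 (25.8 ± 0.846 TPM with lysine, 48.2 ± 5.13 TPM with PBS) and the redox-inactive isomerase relative Erp29 (122 ± 13.6 TPM with lysine, 193 ± 0.535 TPM with PBS). Among those that rose was Dnajb9, the J protein ERdj4 that acts on BiP and represses IRE1, with 40.1 ± 5.11 TPM with lysine and 18.2 ± 1.34 TPM with PBS (log2 fold change 1.09 ± 0.11, adjusted p = 0.000361). Tmx1 (0.49) and Txndc12 (0.38), both of the thioredoxin fold, rose as well, given as log2 fold changes. The J-domain genes Dnajc1 (0.45) and Dnajc25 (0.36), named after their values were seen, rose too. Of the J-domain genes among the members, Dnajb11 and Dnajc10 fell, and Dnajc3 and Sec63 did not pass.

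Genes that target proteins to the ER went both ways. Among 33 tested, 12 fell, 9 rose and 12 were not called (median -0.02). The shares were 36.4% lower and 27.3% higher, against 29.3% and 25.8% of all genes tested. That is close, so the count is no result about this list. Tram1, a neighbour of the channel, fell (log2 fold change -0.73 ± 0.07, adjusted p = 0.000267), as did Hm13, the signal peptide peptidase, listed under its older symbol H13 (-0.56 ± 0.05, adjusted p = 0.000173). Within the signal recognition particle, Srp68 (0.49) and Srp9 (0.46) rose and Srp54a (-1.21) fell, given as log2 fold changes. Srp54b, a paralog of Srp54a named after its value was seen, fell as well (-1.06). Whether reads of the pair could be told apart was not tested. Get3, which inserts tail-anchored proteins, rose to 166 ± 3.11 TPM with lysine, against 118 ± 2.78 TPM with PBS (adjusted p = 0.000322).

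Further oligosaccharyltransferase subunits and enzymes that build the glycan precursor were lower more often than higher. In 24 tested genes there were 12 falls, 2 rises and 10 that did not pass (median -0.30). The shares were 50% lower and 8.33% higher, against 29.3% and 25.8% of all genes tested. Among the falls were Alg1 (-1.18), a mannosyltransferase of glycan precursor assembly, and Dpm2 (-0.65), a subunit of dolichol-phosphate mannose synthase, and Mpdu1 (0.43) and Alg9 (0.36) were the rises, given as log2 fold changes. There was 1 rise without lysine replicate 2 or 3 or PBS replicate 1 or 3.

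The sensors and factors of the unfolded protein response went both ways. Of 19 genes, 9 rose, 6 fell and 4 did not pass (median 0.09). The shares were 31.6% lower and 47.4% higher, against 29.3% and 25.8% of all genes tested. Xbp1, the IRE1 target and activator of ER chaperone and translocation genes, held 47.42, 47.96 and 65.08 TPM with lysine, against 113.86, 115.76 and 107.66 TPM with PBS (log2 fold change -1.07 ± 0.13, adjusted p = 0.000638). Its spliced and unspliced forms cannot be told apart in a table of genes. Of the sensors, which were named after their values were seen, Ern1, the gene of IRE1, rose to 34.2 ± 0.991 TPM with lysine, against 13.9 ± 2.48 TPM with PBS (adjusted p = 0.00032). Atf6 rose to 19.1 ± 1.17 TPM with lysine, against 9.64 ± 0.0854 TPM with PBS (adjusted p = 0.000166). Eif2ak3, the gene of PERK, held 9.81 ± 0.792 TPM with lysine and 9.14 ± 0.465 TPM with PBS and did not pass (adjusted p = 0.433). Atf6b, a relative of ATF6, fell (-1.06 ± 0.11, adjusted p = 0.000448), and so did Selenos (-0.30 ± 0.06, adjusted p = 0.00568), which acts in ER-associated degradation. Atf4, which PERK and the other eIF2alpha kinases induce through translation, rose by a log2 fold change of 2.04. Ppp1r15a (2.21), which reverses the block of translation, and Ddit3 (1.97), the gene of CHOP, rose as well. Ddit3 has more than 1 row in the table, and the protein-coding gene was used.

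Genes of ER-associated degradation, the route that returns misfolded proteins to the proteasome, went both ways. Among 29, there were 10 higher, 10 lower and 9 that did not pass (median -0.07). The shares were 34.5% lower and 34.5% higher, against 29.3% and 25.8% of all genes tested. That is close, so the count is no result about this list. The ligase Syvn1 fell to 14.8 ± 1.05 TPM with lysine, against 30.5 ± 0.812 TPM with PBS (adjusted p = 0.000119), while its partner Sel1l rose to 81.1 ± 1.75 TPM with lysine, against 53.7 ± 3.17 TPM with PBS (adjusted p = 0.000427). Also among the changes with the smallest adjusted p were the rises of Ube2g2 (0.81), a conjugating enzyme of this route, and Herpud2 (0.70), and the falls of Vcp (-0.57), the extracting ATPase, and Edem2 (-0.66), a mannosidase-like protein, given as log2 fold changes.

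**Figure D5:**
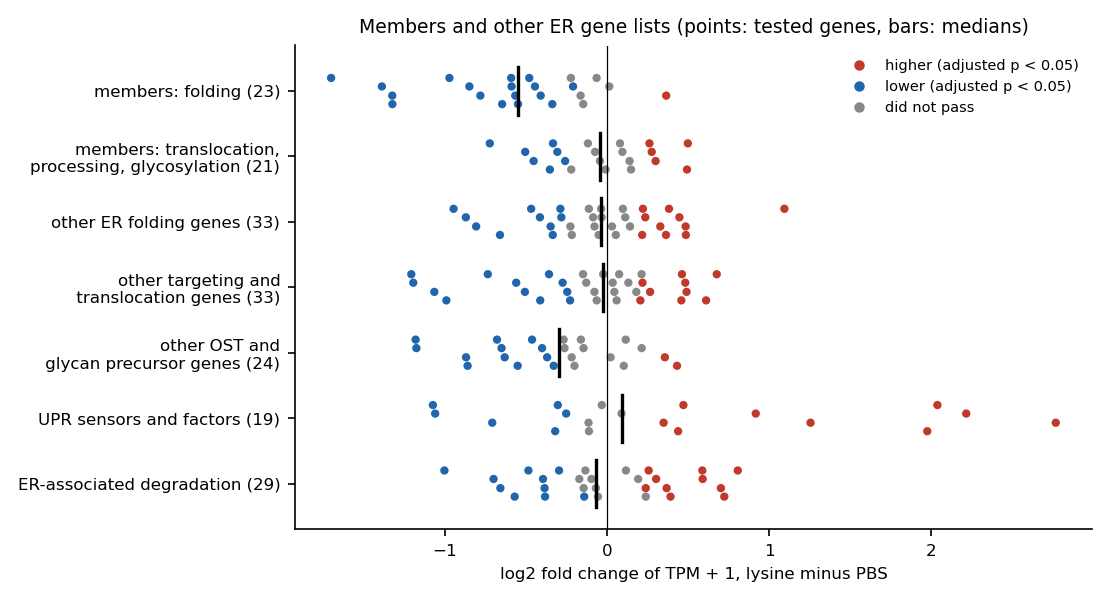
Log2 fold change (lysine minus PBS, horizontal axis) of each tested gene in the folding members, the translocation, processing and glycosylation members, and 5 lists of other ER genes, with bars at the medians. The folding members have the lowest median (-0.55), the other folding, targeting and degradation lists centre near 0, and the unfolded protein response list spreads widest, up to 2.77.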

How the data were processed

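The authors deposited TPM for 55740 gene models, with 1 column per sample. Per the series' design text, RSEM quantified abundance. Per the submitters' processing notes, HISAT2, StringTie, RSEM and edgeR were used with the build GRCm38.p6. Versions, gene models and strand setting are not stated there. Columns headed K were taken as lysine, whose amino acid code is K, with the same replicate number. The 12539 genes that reached 1 TPM in 3 or more samples were tested on log2(TPM + 1) with limma 3.58.1 and an intensity trend in R 4.3.3, over all 6 samples. Fold changes on this scale understate the change of low genes and carry their standard error (SE). TPM is given as mean ± SD (n = 3). Ratios are printed as ratios of TPM and were compared as log2 ratios of TPM + 1 with exact permutation tests in scipy 1.17.1. Plain n-fold values are ratios of mean TPM.

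The members, role groups and lists were chosen with earlier results of these data known. All 44 members are named. For each role group, values in every sample are given for the 2 members with the smallest adjusted p and for any that rose. For each other list up to 3 rises and 3 falls with the smallest adjusted p are named, and for each marker list the most abundant gene. A result that this rule selects is not reported here. Members given in more detail than this rule asks, motifs and printed promoters were chosen after values were seen. Positions came from GENCODE M21 (GRCm38), which held all 44 members, and promoters from RefSeq. The last 25 bases of 35 of 42 member windows were found in a GENCODE transcript of the gene, on its strand. Of the members, 18 overlap exons of another gene, 6 of them one at 1 TPM or more. BLAST at 95% identity over 200 bases found a transcript of another gene at 1 TPM or more for Sec61g only. Of the 202 other list genes, 2 were matched by a RefSeq synonym, and Tusc3 was not matched. The test was checked on simulated data. Alternatives were median-of-ratios scaling, quantile normalization, a filter of 5 TPM, every gene with a value above 0, a pseudocount of 0.1, the replicate number as a block, limma without the trend and leaving out each sample. Rescaling to protein-coding nuclear genes was added after seeing the data.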

Additional observations from a re-analysis of the deposited data

How the results depend on the processing

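Across the 14 alternatives the number of members called was 27 to 31, with 22 to 26 lower and 5 to 7 higher, and the groups did not overlap for 32 to 37. The median of all genes tested moved by less than 0.1 on the log2 scale in every scaling, and 5742 to 7339 genes were called. The summed level of the members was 0.800 of PBS as deposited and 0.827 under median-of-ratios scaling. Calls of 9 members changed in at least 1 alternative: Ero1a, Stt3a, Rpn1, Spcs2, Hspa5, Dnajc3, Sec61b, Stt3b and Dad1. The SEC61 group had 2 calls under the replicate block and quantile normalization, and 1 to 2 when a sample was left out. Oligosaccharyltransferase had 2 to 5 calls when a sample was left out, with 2 without lysine replicate 2. Other ER folding genes had 5 rises with no filter beyond a value above 0 and 5 to 10 when a sample was left out, with 5 without lysine replicate 1 or 2 and 6 without PBS replicate 3. The glycan precursor list had 1 rise with no filter and 1 to 2 when a sample was left out, with 1 without lysine replicate 2 or 3 and PBS replicate 1 or 3.

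Log2 fold changes that turned sign were all of members that did not pass. Canx was -0.084 under quantile normalization and -0.0533 to 0.063 when a sample was left out, below 0 without lysine replicate 3 (-0.0533) or PBS replicate 3 (-0.050). Ssr4 was -0.011 under quantile normalization. Under median-of-ratios scaling Sec61a1 was 0.0062 and Sec63 0.040. With a sample left out Sec63 was -0.066 to 0.054 and Sec61g -0.24 to 0.12, above 0 without lysine replicate 1 or PBS replicate 1 in both and without lysine replicate 2 in Sec63. The cause of these shifts was not tested.

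Same-numbered samples correlated in their deviations from the group means at 0.17, 0.09 and 0.25, and differently numbered samples at -0.21 to 0.05. Every sample thus correlated best with its own number. The main test took no account of the numbers, and its p-values do not cover an effect shared by same-numbered samples. What such samples share was not tested. With the replicate block 7339 genes and 31 members were called. The block ended the call of Ero1a (adjusted p = 0.0562) and added Dnajc3 (0.037) and Sec61b (0.0184). A sign-flip test over the 3 same-numbered pairs gave exact p = 0.25 for each ratio, the smallest it allows. The depth of the libraries is unknown, so counting error is not covered by any value.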
